A study of Mus musculus with 8 samples.

Results

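Expression of 10 genes of the Notch pathway was measured by RNA-Seq in medial knee cartilage caps of mice. The genes were the receptors Notch1, Notch2, Notch3 and Notch4, the ligands Jag1, Jag2, Dll1 and Dll4, and the target genes Hes1 and Hey1. They were chosen by name, with earlier results of these data known. All 10 were found among the 50462 gene identifiers of the deposited count table. The libraries came from 8 wild-type male C57BL/6J mice, 1 library per mouse. The 4 naive mice were not operated on and gave tissue at day 0, at 11 weeks of age. The 4 DMM mice had the left medial meniscus destabilised at 11 weeks of age by cutting the ligament that ties it to the tibia (destabilisation of the medial meniscus, a model of post-traumatic osteoarthritis), and were sampled at day 42, aged 17 weeks. With no sham-operated mice analysed here, the effects of surgery, its aftercare and the difference in age cannot be told apart.

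Notch signalling passes between touching cells. A ligand of the Jagged or Delta-like family on one cell binds a receptor on its neighbour, ADAM10 and then gamma-secretase cut the receptor, and the freed intracellular domain enters the nucleus, where it joins RBPJ and a Mastermind-like coactivator to switch on genes of the Hes and Hey families. In cartilage the pathway is known for regulating the maturation of chondrocytes and for its activity in osteoarthritic joints, and in blood vessels for signalling between endothelial cells and the mural cells (smooth muscle cells and pericytes) that surround them.

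Of the 10 genes, 7 were higher in DMM than in naive cartilage and 0 were lower. A gene was called when its change was 1.5-fold or more with an adjusted p (Benjamini-Hochberg) no higher than 0.05 in a DESeq2 Wald test over all genes. The 7 were Notch3, Notch4, Jag1, Jag2, Dll4, Hes1 and Hey1, and in each of them the 4 DMM libraries lay above the 4 naive libraries. Notch1, Notch2 and Dll1 were not called. Of the 18707 genes tested, 7.38% were called higher and 5.63% lower, and the groups did not overlap in 11.5% with DMM higher and in 9.86% with DMM lower. Without the fold threshold, 10.7% of the genes tested passed as higher, and the members that passed were again these 7. The median log2 fold change was 0.79 over the 10 genes and -0.014 over all genes tested. Leaving out 1 library at a time gave between 5 and 7 members called higher, the fewest without DMM library 1.

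The stretches of DNA just before the transcription start of 4 of the genes are shown because they hold, or lack, letters recognised by proteins of the pathway itself. Notch3 had the largest change of the receptors, Jag1 and Dll4 were called ligands, and Notch2 is shown as a receptor that was not called. Each sequence is taken from the 250 bases before the RefSeq start on GRCm38.p6, cut where the GENCODE vM21 gene begins, and is written from 5′ to 3′ on the strand of the gene. Capitals mark CACGCG or its reverse complement CGCGTG, a sequence that HES and HEY proteins are known to bind.
Notch3, chr17:32166891-32167140 (- strand): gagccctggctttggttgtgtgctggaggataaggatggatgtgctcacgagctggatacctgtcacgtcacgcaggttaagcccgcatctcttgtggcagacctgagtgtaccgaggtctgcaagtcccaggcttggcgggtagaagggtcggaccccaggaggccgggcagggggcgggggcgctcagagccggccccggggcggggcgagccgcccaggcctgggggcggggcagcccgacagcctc
Notch2, chr3:98013288-98013526 (+ strand): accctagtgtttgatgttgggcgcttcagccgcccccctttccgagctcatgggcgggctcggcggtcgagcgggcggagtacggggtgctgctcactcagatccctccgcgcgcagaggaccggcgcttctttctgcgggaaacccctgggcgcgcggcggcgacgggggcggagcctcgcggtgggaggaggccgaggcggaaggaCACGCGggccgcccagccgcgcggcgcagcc
Jag1, chr2:137116645-137116770 (- strand): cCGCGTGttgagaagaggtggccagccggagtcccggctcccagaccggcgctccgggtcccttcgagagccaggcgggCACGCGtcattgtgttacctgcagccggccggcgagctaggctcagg
Dll4, chr2:119325534-119325783 (+ strand): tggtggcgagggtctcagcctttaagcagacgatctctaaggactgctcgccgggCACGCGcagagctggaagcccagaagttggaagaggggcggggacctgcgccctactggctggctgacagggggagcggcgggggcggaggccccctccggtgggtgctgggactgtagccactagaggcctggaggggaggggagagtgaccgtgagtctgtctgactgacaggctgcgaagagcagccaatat

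RefSeq promoters were found for 8 of the 10 genes, in 9 windows since Dll1 had a pair of starts, and no window was found for Hes1 and Hey1. Both strands of each 250-base window were searched for TGGGAA (the core of the RBPJ binding sequence), CACGTG and CACGCG, and no match overlapped another. CACGCG was found in 4 of the 9 windows, those of Notch2, Jag1, Dll4 and the more distal start of Dll1, and it occurred in 7.62% of 32851 windows of the same length across all genes. The match lay 42 bases before the start in Notch2, 195 in Dll4 and 68 in Dll1, and Jag1 held matches beginning 171 and 249 bases before its start. Of these genes, Jag1 and Dll4 were called and Notch2 and Dll1 were not. TGGGAA was in 0 of the 9 windows and in 21.6% of all windows, and CACGTG was in 0 of the 9 and in 6.02% of all windows. The windows of Notch1, Jag2 and the more proximal start of Dll1 lay wholly within the GENCODE gene, and none held any of these sequences. The windows of the members held between 56.0% and 87.2% G and C, against a median of 52.4% over all windows, and the part of base composition in these matches was not tested. A match is given as letters in a window and not as a binding site.

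The libraries held between 12479443 and 16548002 estimated counts, and between 16770 (naive library 2) and 19271 genes had 10 or more counts. The cartilage label was checked against marker genes. Col2a1 and Acan, which encode the main collagen and proteoglycan of cartilage, were abundant in all libraries, whereas Matn1, another cartilage matrix gene, was at 0.889 normalised counts on average in DMM. The summed normalised count of 10 chondrocyte markers ranged from 34237 to 66419 in naive and from 86000.3 to 158481 in DMM libraries. Col2a1 held 41.4% to 61.7% of this sum, and without it the groups did not overlap either. Of the list, 9 markers were tested, 5 were called higher and 0 lower, against 7.38% and 5.63% of all genes tested. Col9a1 (log2 difference -0.36) and Matn3 (-0.29) went the other way and were not called. Matn1, which had too few counts to be tested, was also lower in DMM, without overlap. Col9a1 ran from 98.5 to 1711 normalised counts over the naive libraries. Markers of bone and marrow cells were also abundant. The summed count of 8 osteoblast markers ranged from 127480 to 218727 in naive and from 334242 to 422165 in DMM libraries. Col1a1, which fibroblasts also make, held 79.9% to 91.0% of it. The summed count of 8 neutrophil markers ranged from 118357 to 178331 in naive and from 51709 to 106636 in DMM libraries. Skeletal muscle markers summed to 1215 in DMM library 1 and to at most 461 in any other library. In such bulk samples, more cells of a type and more RNA per cell cannot be told apart.

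The 4 receptors fell into those that changed and those that were not called, and the more abundant pair was in the second group. Notch3, a receptor best known from vascular smooth muscle (chromosome 17, 32120820 to 32166852, GRCm38), showed the largest change. Its normalised counts were 428, 488, 600.4 and 611 in naive and 1248, 1221, 984 and 884 in DMM libraries. The groups were well separated, with naive libraries 1 and 2 the lowest and DMM libraries 1 and 2 the highest. The log2 fold change was 1.03 ± 0.16 (SE), a 2.04-fold rise (adjusted p = 4.65e-08), and it lay between 0.94 and 1.11 when any 1 library was left out.

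Notch4, a receptor best known from endothelial cells (chromosome 17, 34564268 to 34588503), also rose. Its normalised counts were 122, 129, 127 and 169 in naive and 276, 209.6, 169.6 and 215 in DMM libraries. Naive library 4 stood apart from the other naive libraries and came within 1 normalised count of DMM library 3, so the groups only just failed to overlap. The log2 fold change was 0.67 ± 0.19 (SE), or 1.59-fold (adjusted p = 0.00509). Without DMM library 1 it was 0.53, below the fold threshold.

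Notch1 and Notch2, the receptors that act most widely in development, were not called. The normalised counts of Notch1 (chromosome 2, 26457903 to 26516663) were 1536, 1829, 1413 and 1357 in naive and 1540.0, 1649, 1353 and 1279.8 in DMM libraries, with a log2 difference of -0.08 (95% interval -0.34 to 0.19, adjusted p = 0.765). Those of Notch2 (chromosome 3, 98013527 to 98150361) were 4124, 4631, 3959 and 3788 in naive and 4721, 4658, 4464 and 3961 in DMM libraries, with a log2 difference of 0.11 (95% interval -0.09 to 0.31, adjusted p = 0.516). The groups overlapped for both receptors, and both intervals excluded a 1.5-fold change. The sign of the Notch1 difference was not stable, since it was 0.086 when libraries were scaled by their total counts. Opposite-strand genes overlap Notch1, Notch3 (Gm17276) and Notch4 (Gm20462), and 9.40%, 6.59% and 0% of the 31-base words in the transcripts of these receptors occur in other genes.

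**Figure D1:**
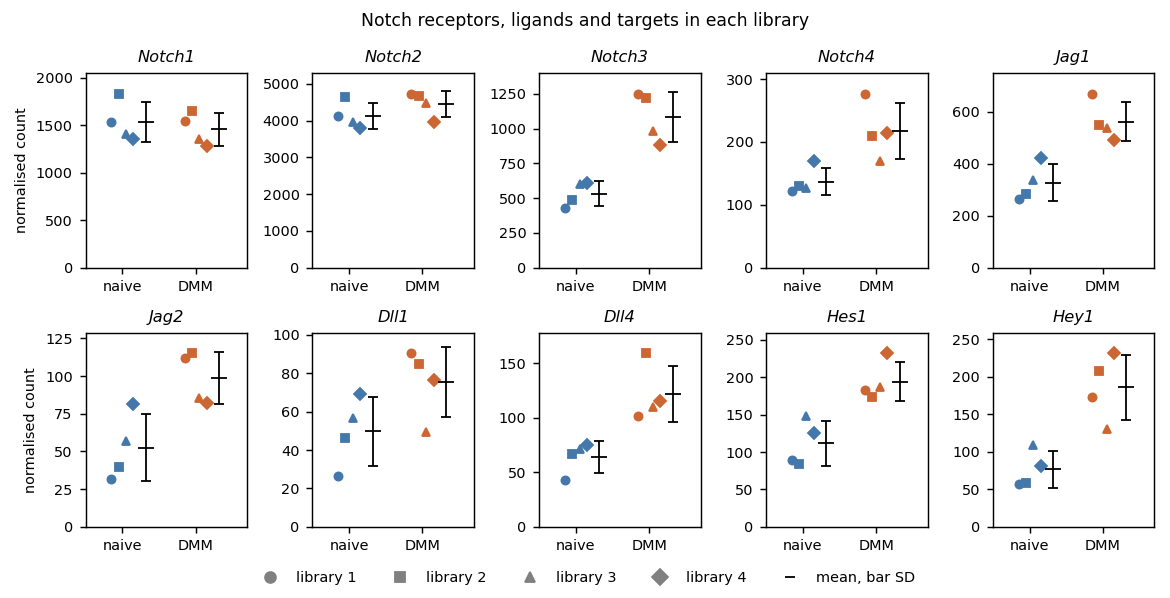
Normalised counts (vertical axes, linear and starting at 0) of the 10 genes in the 4 naive and 4 DMM libraries, where each symbol is 1 library of 1 mouse and the bar beside each group gives the mean and SD. Library numbers only name libraries and do not pair them. For the 7 called genes every DMM symbol sits above every naive symbol, by a large margin in Notch3 and by a small one in Jag2 and Notch4.

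Of the 4 ligands, 3 were called higher, and all 4 had a log2 fold change above 0. Jag1, a Jagged ligand made by vessel wall and skeletal cells among others (chromosome 2, 137081456 to 137116644), was the most abundant. Its normalised counts were 266, 283, 336 and 423 in naive and 669, 549, 540.0 and 491 in DMM libraries, which did not overlap. The log2 fold change was 0.78 ± 0.17 (SE), or 1.72-fold (adjusted p = 0.000127).

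Dll4, a Delta-like ligand known from sprouting endothelium (chromosome 2, 119325784 to 119335962), rose from 43.1, 66.5, 71.7 and 74.8 normalised counts in naive to 102, 159, 110.3 and 116 in DMM libraries. Naive library 1 and DMM library 2 were the extremes, and the groups did not overlap. The log2 fold change was 0.93 ± 0.24 (SE), or 1.91-fold (adjusted p = 0.00138). An opposite-strand gene, Gm14207, overlaps Dll4, and whether the counting used strand is not given in the sources used here.

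Jag2, the second Jagged ligand (chromosome 12, 112907819 to 112929776), had 31.7, 39.9, 56.7 and 81.6 normalised counts in naive and 112, 115, 85.6 and 82.1 in DMM libraries. The highest naive and the lowest DMM library were almost level. The log2 fold change was 0.91 ± 0.29 (SE), or 1.88-fold (adjusted p = 0.0133), and the call was kept in 4 of the 8 fits that left out a library. It was lost without naive library 1 or 2 or DMM library 1 or 2, where the adjusted p lay between 0.0572 and 0.0707.

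Dll1, a Delta-like ligand that acts in many developing tissues (chromosome 17, 15367354 to 15376872), had 26.4, 46.6, 56.7 and 69.2 normalised counts in naive and 90.4, 84.9, 49.4 and 76.7 in DMM libraries. DMM library 3 fell within the naive range, while the other 3 DMM libraries lay above it. The log2 difference was 0.61 (95% interval -0.01 to 1.23, adjusted p = 0.170), so the interval held both no change and a change larger than that of Dll4. Dll1 was among the shallowest members, with 30 to 109 counts per library. Of the 31-base words in its transcripts, 17.9% also occur in other genes, and the gene A930024N18Rik overlaps it on the opposite strand, so its counts are less certain.

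Both target genes rose. HES1 and HEY1 are repressors of the basic helix-loop-helix family whose genes are switched on by the Notch intracellular domain, although other signals also act on them. Hes1 (chromosome 16, 30064384 to 30067796) had 89.7, 83.8, 148 and 126 normalised counts in naive and 183, 174, 187 and 232 in DMM libraries, with a log2 fold change of 0.80 ± 0.21 (SE), or 1.74-fold (adjusted p = 0.00192). Hey1 (chromosome 3, 8663359 to 8667256) had 57.2, 58.5, 109 and 81.6 in naive and 173, 207, 131 and 231 in DMM libraries, with a log2 fold change of 1.28 ± 0.26 (SE), or 2.42-fold (adjusted p = 2.56e-05). For both genes the groups did not overlap, naive libraries 1 and 2 were the lowest of all, and DMM library 4 was the highest. The change of Hey1 was the largest of the 10 genes, and it was called, like that of Hes1, in every fit that left out a library. Whether Hey1 changed more than Hes1 was not tested.

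Other targets of the pathway changed in both directions. Of 8 further genes known as targets or Hes relatives, 5 had counts enough to be tested, 3 were called higher and 1 was called lower. Heyl, a relative of Hey1, had 72.1, 83.8, 156 and 149 normalised counts in naive and 318, 305, 203 and 266 in DMM libraries (log2 fold change 1.25 ± 0.26, SE, adjusted p = 5.08e-05). Hey2, another relative, was called at a low level, 15.4 ± 7.11 (SD, n = 4) in naive and 32.8 ± 9.44 in DMM (log2 fold change 1.07 ± 0.41, SE, adjusted p = 0.0439), and that call was lost in 7 of the 8 fits that left out a library, as well as with edgeR (adjusted p = 0.0630) and limma-voom (0.0549). Nrarp, which encodes a short inhibitor of the Notch intracellular domain, was at 31.2 ± 6.14 in naive and 55.8 ± 8.64 in DMM (log2 fold change 0.83 ± 0.27, SE, adjusted p = 0.0164). Of the 31-base words in Nrarp transcripts, 78.2% occur in other genes, the call was lost in 4 of those 8 fits, and with the replicate number as a block its adjusted p was 0.0722.

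Hes7, known as an oscillating gene of the segmenting embryo, went the other way. Its normalised counts were 136, 198, 244 and 286 in naive and 93.7, 73.1, 52.7 and 144 in DMM libraries, so that DMM library 4 lay just above naive library 1 and the groups overlapped. The log2 fold change was -1.25 ± 0.31 (SE, adjusted p = 0.000674), and the call was kept without any 1 library. A gene on the opposite strand, 9130213A22Rik, overlaps Hes7, and 11.9% of the 31-base words of Hes7 occur elsewhere. Hes6 was not called (log2 difference -0.11, 95% interval -0.51 to 0.28), and Hes2, Hes3 and Hes5 had too few counts to be tested.

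The rest of the pathway was counted by role. With those targets, 46 other genes of the pathway were listed, 40 were tested, 6 were called higher and 1 lower, with a median log2 fold change of 0.10. Among all genes tested, 7.38% were called higher and 5.63% lower. None of the 4 genes for ligand endocytosis, the 5 for receptor glycosylation or the 9 for receptor cleavage was called. In these lists Mib1, which encodes the ubiquitin ligase that drives ligand uptake, was 1.23-fold higher (adjusted p = 0.00588), Furin, which cuts the receptor during its maturation, was 1.25-fold higher (adjusted p = 0.0318), and Adam10, the first protease after ligand binding, had a log2 change of -0.31 (adjusted p = 0.0493), all under the fold threshold. The 3 further ligand genes, Dll3, Dlk1 and Dlk2, had too few counts to be tested.

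In the nuclear complex 1 of 8 genes was called. Maml2, a Mastermind-like coactivator, had 285, 279, 309 and 355 normalised counts in naive and 591, 521, 508 and 412 in DMM libraries (log2 fold change 0.73 ± 0.15, SE, adjusted p = 3.47e-05). The groups did not overlap and the call was kept without any 1 library. Of 9 genes for receptor turnover, 2 were called higher. Numbl, a relative of the inhibitor Numb, was 1.60-fold higher (adjusted p = 0.0027), and Dtx3, of the Deltex family of ubiquitin ligases, was 1.55-fold higher (adjusted p = 0.00574), and each call was lost in 2 of the 8 fits that left out a library, without naive library 1 or DMM library 1.

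**Figure D2:**
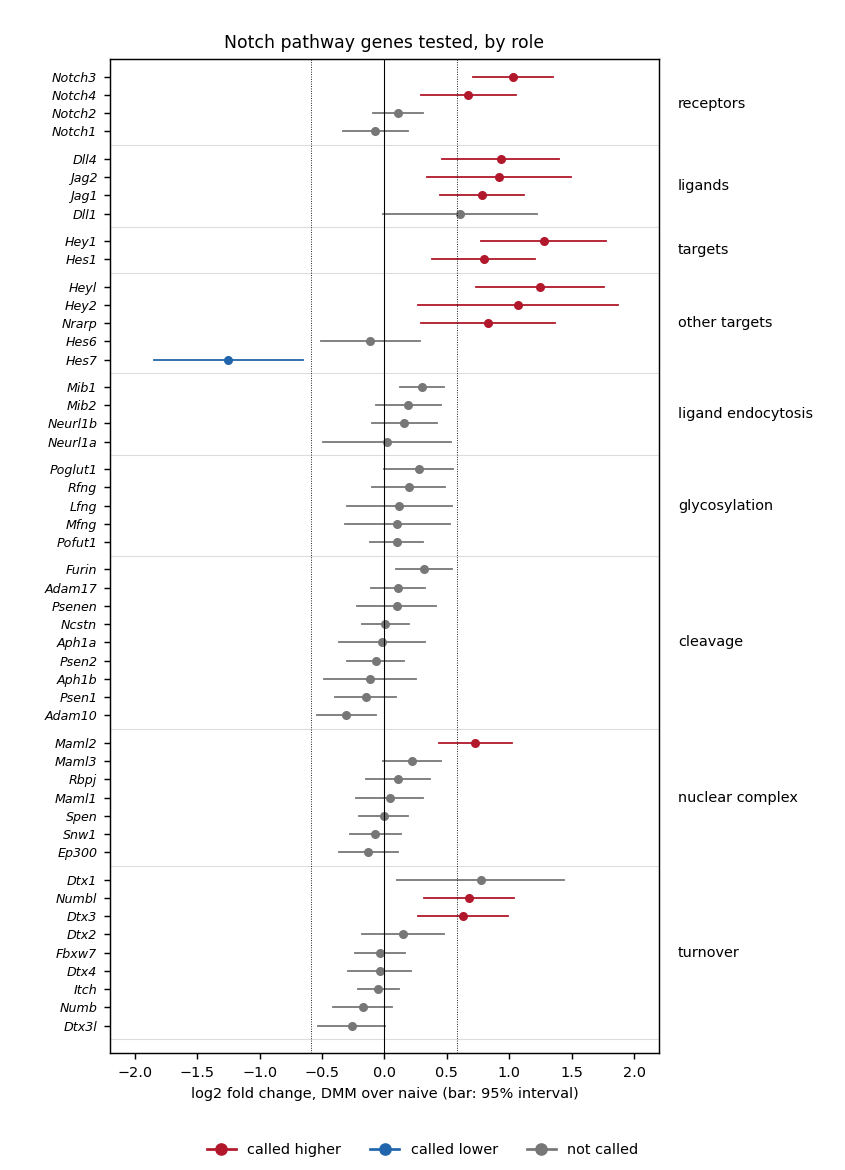
Log2 fold change of DMM over naive (horizontal axis) for the 10 members and 39 of the 40 other pathway genes tested, grouped by role, with 95% intervals from DESeq2 and dotted lines at 1.5-fold in either direction. Red marks a gene called higher, blue one called lower and grey one not called. Called genes are found among receptors, ligands, targets, the nuclear complex and receptor turnover, and there were 0 among the 18 genes for ligand endocytosis, glycosylation and cleavage. Differences between roles were not tested.

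To compare levels between genes, normalised counts were divided by the length in kb of the longest coding transcript. In naive cartilage the level per kb was highest for Notch2 at 393 ± 34.6 (SD, n = 4), then Notch1 at 162 ± 22.2. These 2 stood clear of each other and of the rest. Hes1 (76.1), Notch3 (66.4) and Jag1 (58.3) followed with ranges that overlapped from each to the next, then Hey1 (31.6), Notch4 (20.8), Dll4 (17.1), Dll1 (13.9) and Jag2 (10.3), whose ranges again overlapped from each to the next.

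In DMM cartilage the mean levels per kb kept this order except that Notch3 passed Hes1. Notch2 (424 per kb) stayed clear of the rest. Notch1 (153), Notch3 (135), Hes1 (132), Jag1 (100.2) and Hey1 (76.6) formed a run in which the range of each gene overlapped that of the next. Notch4 (33.0) and Dll4 (32.5) overlapped each other, and so did Dll1 (21.0) and Jag2 (19.3) below them. With the length of all exons in place of the longest transcript, Hes1 came below Jag1 in both groups, and in DMM Notch3 came above Notch1 and Dll4 above Notch4.

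As shares of the summed receptor level per kb, Notch3 made up 8.53%, 8.53%, 12.1% and 12.6% in naive and 19.2%, 19.0%, 17.1% and 16.8% in DMM libraries. These ranges did not overlap, and Notch1 moved the opposite way, from 25.1% ± 1.58 (SD, n = 4) to 20.6% ± 0.804, also without overlap. Notch2 held 61.2% ± 1.33 and 57.0% ± 1.90, again without overlap, and Notch4 3.26% ± 0.665 and 4.43% ± 0.768, the latter with overlapping groups. The shares sum to 100 in each library, so they cannot move independently.

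The make-up of the ligand transcripts overlapped between the groups. Jag1 held 59.1% ± 4.24 (SD, n = 4) of the summed ligand level per kb in naive and 57.9% ± 4.47 in DMM. Dll4 held 17.3% ± 2.13 and 18.9% ± 3.61, Dll1 13.6% ± 2.30 and 12.1% ± 2.21, and Jag2 10.0% ± 1.71 and 11.1% ± 0.761. The ranges of naive and DMM libraries overlapped for each of the 4 ligands.

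**Figure D3:**
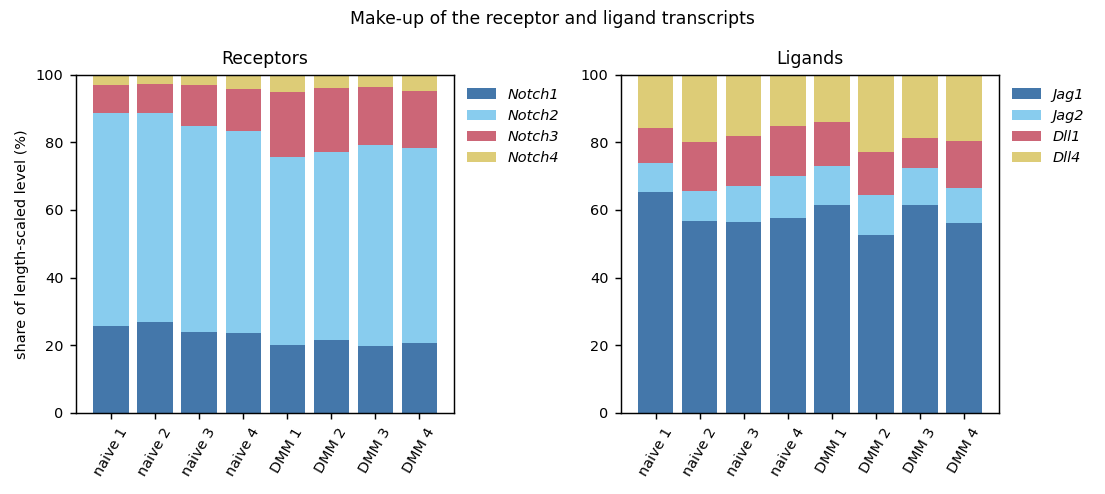
Share (%) of each receptor in the summed receptor level per kb (left) and of each ligand in the summed ligand level per kb (right), 1 bar per library. The Notch3 segment widens from 8.53% to 12.6% in naive to 16.8% to 19.2% in DMM libraries, while the ligand segments overlap between the groups.

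Several marker lists rose along with the called members. The median log2 fold change was 1.06 for the osteoblast and 0.88 for the chondrocyte markers, whose sums are given above. Markers of vessel walls and of synovial fibroblasts are given here beside the members. Among all genes tested, 7.38% were called higher and 5.63% lower. Of 10 mural markers, 6 were called higher and 0 lower, with a median log2 fold change of 0.95. Their summed normalised counts were 3140, 3571, 4715 and 5902 in naive and 8408, 7013, 9644 and 7199 in DMM libraries, which did not overlap. Naive libraries 1 and 2 were below naive libraries 3 and 4 in this sum, as they were in 7 of the members, namely Notch3, Jag1, Jag2, Dll1, Dll4, Hes1 and Hey1. The sums of the T cell, skeletal muscle and synovial fibroblast lists had the same order of naive libraries, so it was not particular to mural markers. The share of all genes tested with this order was not counted. None of the 10 mural markers was at 0 in all libraries, and the most abundant was Cspg4, which skeletal progenitors also make.

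Of 12 endothelial markers, 5 were called higher, 1, Vwf, was called lower, and the median log2 fold change was 0.53. Their summed counts overlapped, from 7070 to 8139 in naive and from 7432 to 8497 in DMM libraries, but this rested on Vwf. Without it the sum of the other 11 markers ranged from 4668 to 5217 in naive and from 5883 to 6866 in DMM libraries, which did not overlap. Over both groups Vwf was the most abundant of the 12, at 2533 ± 709 (SD, n = 4) normalised counts in naive and 1536 ± 223 in DMM (log2 fold change -0.72 ± 0.19, SE, adjusted p = 0.0021).

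Of 8 synovial fibroblast markers, 4 were called higher and 0 lower, with a median log2 fold change of 1.02. Pi16 went the other way without overlap (log2 fold change -0.35, adjusted p = 0.0101), under the fold threshold. The summed counts of the list ranged from 1397 to 2570.4 in naive and from 1725 to 4692 in DMM libraries, and the groups overlapped. Over both groups the most abundant was Dpt, a matrix gene of fibroblasts. In naive libraries its mean of 279 was below those of Pi16 (456) and Cd34 (426).

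As a percent of the mural sum, Notch3 was 12.6 ± 1.56 (SD, n = 4) in naive and 13.7 ± 3.13 in DMM, Jag1 7.67 ± 0.642 and 7.05 ± 1.09, and Hey1 1.79 ± 0.394 and 2.40 ± 0.850. The ranges of naive and DMM libraries overlapped for all 7 called members on this scale, with or without Cspg4 in the sum. Of all genes tested, 0.396% were separate on it with DMM higher and 56.2% with DMM lower. The overlap was not particular to the mural sum. As a percent of the osteoblast sum or of the chondrocyte sum, naive and DMM ranges also overlapped for all 7. Mean Notch3 was 0.351 in naive and 0.293 in DMM on the osteoblast scale, and 1.13 and 1.03 on the chondrocyte scale. The share of all genes separate on those scales was not counted, so these overlaps cannot be set against those of other genes. As a percent of the endothelial sum, Notch3 lay from 5.52 to 8.64 in naive and from 11.9 to 15.3 in DMM libraries, and Dll4 was at 0.852 ± 0.221 (SD, n = 4) and 1.53 ± 0.259. On this scale naive and DMM libraries were separate for 5 of the 7, Notch3, Jag1, Dll4, Hes1 and Hey1, and overlapped for Notch4 and Jag2, while of all genes tested 7.18% were separate with DMM higher and 14.1% with DMM lower. With Vwf left out of the sum, a choice made after seeing the data, 3 of the 7 were separate, Notch3, Dll4 and Hey1, against 2.90% of all genes with DMM higher and 32.3% with DMM lower. The 7 had been called on the same counts, so these shares are a description. The part of any of these cell types in the changes of the members was not tested.

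**Figure D4:**
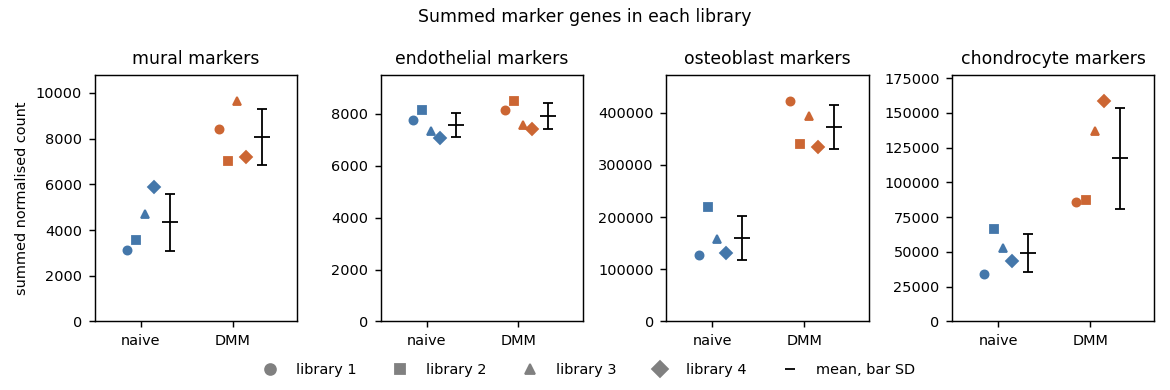
Summed normalised counts (vertical axes, linear and starting at 0) of the mural, endothelial, osteoblast and chondrocyte marker lists in each library, with symbols by library and bars for the mean and SD. The endothelial sums, which include Vwf, overlap between naive and DMM libraries, and those of the other 3 lists do not.

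Genes whose pattern over the 8 libraries came closest to that of each called member were found among 11038 or 11039 other genes averaging 100 or more normalised counts, by the root mean square (RMS) difference of log2 values centred on each gene's mean. For Jag1 they were 2010111I01Rik, Rbfox2 and the mural marker Pdgfrb, with RMS differences of 0.0607, 0.0721 and 0.0743 against a median of 0.514 over all ranked genes. For Notch3 they were Arhgef19, Slc9a3r2 and 2900026A02Rik (0.0813, 0.0878 and 0.113, median 0.606), and for Notch4 Prdm1, Pald1 and Mapkbp1 (0.0960 to 0.107). Jag2 was closest to the mural marker Mcam, Gm26672 and the basement membrane collagen gene Col4a1 (0.146 to 0.159), and Dll4 to Etv5, Pcdh12 and Bmp7 (0.155 to 0.164). Hes1 was closest to Plekhh2, Dlx5 and Lmo7 (0.0914 to 0.106). Hey1 had no gene as near, and its closest were Kcna6, its relative Heyl and Tmie (0.215, 0.216 and 0.224). All of these 21 genes had a log2 fold change above 0, which the measure favours since each member rose, and the list is a description of these 8 libraries.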

How the data were processed

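The 10 members and the pathway and marker lists were chosen with earlier results of these data known. The table holds estimated counts, which the authors obtained from trimmed reads (Trimmomatic) by pseudo-alignment in Kallisto and gene-level summing in tximport, and which they deposited without normalisation. Reads matching several transcripts are shared out, and 39.2% of values were not whole numbers. Counts were rounded for testing. The build behind the counts is uncertain, since the methods of the study pair GRCm38 with a later Ensembl release, one made on GRCm39, and the labels list GRCh38. The labels and the methods also name different library kits. Coordinates, lengths and shared 31-base words are from GENCODE vM21 (GRCm38), matched by identifier, and promoters are from RefSeq.

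The 8 libraries were fitted without covariates in DESeq2 1.42.0 (R 4.3.3, median-of-ratios size factors, default filters, unshrunken fold changes), after a test on simulated data. Every adjusted p is from DESeq2 over all genes unless another tool is named. Normalised counts are counts divided by size factors, with errors as SD over 4 mice. Alternatives were edgeR 4.0.16, limma-voom (limma 3.58.1), other size factors, filters and thresholds, a replicate block, and leaving out each library. Named genes were all members, every called pathway gene, the 3 nearest genes of each called member (pseudocount of 1), and of marker lists the most abundant gene and any at 0. Other genes named were chosen after their values were seen. Values of 1 listed pathway gene, which enters the counts, are not reported here.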

Additional observations from a re-analysis of the deposited data

Results flagged for a closer look

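Among the 17 members and called pathway genes, each tested in both groups of 4 libraries, 2 of the 34 groups held a library far from the other 3 by Dixon's test, where chance alone would give about 1.7. Notch4 in naive library 4 was at 168.9 normalised counts, whereas the other naive libraries lay between 122 and 129. Hey2 in DMM library 4 was at 46.9 normalised counts against 27.9 to 28.2 in the other DMM libraries. Without naive library 4 Notch4 was still called. Hey2 was not called without DMM library 4.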

How the results depend on the processing

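The count of 7 members called higher and 0 lower was the same with TMM or total-count size factors, edgeR, limma-voom, other filters and no fold threshold. Leaving out 1 library gave 5 to 7 members called higher and 2 to 6 other pathway genes called higher, the fewest of both without DMM library 1, where 5 members and 2 other genes were called, and 3 other genes were called without naive library 1. Without a fold threshold 2 other pathway genes were lower. The sign of the Notch1 change, which was never called, reversed to 0.0863 with total-count scaling, and it ranged from -0.139 to 0.0193 when 1 library was left out. Under that scaling the median over all genes went from -0.014 to 0.138 on the log2 scale and the calls from 1380 higher and 1054 lower to 2036 and 486. Same-numbered libraries deviated together only weakly (correlations of 0.05, 0.08, -0.16 and 0.10 for numbers 1 to 4), so the numbers were not taken to pair them, and 2 of 8 libraries correlated best with their own number. With the replicate block 7 members and 4 other pathway genes were called higher, without Hey2 (adjusted p = 0.0843) and Nrarp (0.0722). Of 150 alternative values for the members' fold changes, 143 kept their direction and side of the thresholds and 5 lost the call. Low counts limit Jag2 and Dll1, each with as few as 30 counts in a library. Leaving Vwf out of the endothelial sum, added after seeing the data, took the called members separate on that scale from 5 to 3.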
